A study of Homo sapiens with 8 samples.

Results

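The genes described here are 46 ribosome biogenesis and nucleolar factors, picked by symbol from a list of known factors and found by Ensembl identifier among the 58787 genes of a raw count table. All 46 matched and all 46 passed the filter on low counts. The counts come from polyadenylated RNA of IMR32, an established MYCN-amplified human neuroblastoma line that the labels call a wild-type neuroblast. Cells received CR31B at its IC50 (4 libraries, dose not given in the sources used here) or 0.1% DMSO as vehicle (4 libraries), for 6 h. CR31B is a rocaglate, a class of compounds that clamp the RNA helicase eIF4A onto messenger RNA and so hinder translation initiation. All libraries come from this single line, and the labels number the replicates without saying whether they were separate cultures.

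A ribosome starts in the nucleolus, where RNA polymerase I transcribes a long precursor of ribosomal RNA. Small nucleolar ribonucleoproteins (snoRNPs) modify this precursor, and large sets of assembly factors fold, cut and export the small (40S) and large (60S) subunits. Many genes of this program are known targets of MYC proteins, and neuroblastoma cells with amplified MYCN have prominent nucleoli.

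Total counts ranged from 43687828 to 64715535 per library, and the 46 genes together took 0.758% to 0.843% of them. All 9 markers of sympathetic neuroblasts had a mean of at least 1 CPM (counts scaled to the same library total), and their sum was 3560 to 3850 CPM in CR31B replicates 2 to 4 and 2780 to 2920 in the DMSO replicates, with 2840 and 3620 in the replicate 1 libraries labelled CR31B and DMSO. The markers went both ways in replicates 2 to 4, with 4 called higher, 4 lower and a median log2 fold change of -0.01. GATA3 (783 to 935 CPM with CR31B, 247 to 281 with DMSO) and HAND2 (1203 to 1360 and 680 to 709) carried the rise of the sum, while PHOX2A, DBH, CHGA and STMN2 were lower with CR31B. The part of these marker changes in the results below was not tested. Of the other cell types 1 of 5 fibroblast markers (COL1A1, 15.9 to 30.8 CPM over the 8 libraries) and 1 of 3 endothelial markers (CDH5, 0.66 to 2.58 CPM) reached a mean of 1 CPM, and 0 of 4 leukocyte and 0 of 3 epithelial markers reached a mean of 1 CPM. Replicate 1 was sequenced paired-end and replicates 2 to 4 single-end. The replicate 1 libraries stood apart from their labels: on the first principal component (51.8% of the variance) the library labelled CR31B scored -26.4 beside -29.4 to -25.8 for the single-end DMSO libraries, and the library labelled DMSO scored 32 beside 19 to 29 for the single-end CR31B libraries. In a chi-square comparison of counts per gene, the library labelled CR31B replicate 1 was at 9.48 to 17.3 from DMSO replicates 2 to 4 and at 94.6 to 145 from CR31B replicates 2 to 4. The library labelled DMSO replicate 1 was at 8.01 to 20.8 from the CR31B and at 88.9 to 109 from the DMSO replicates. An exchange of the labels of this pair cannot be told apart here from another difference of the pair, and every value over 8 libraries and every interaction below depends on those labels. Replicate 1 is shown apart throughout, and no label was changed. Levels below are CPM after TMM scaling, and in bulk RNA fewer cells and less RNA per cell cannot be told apart.

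The first question was how the transcripts of the nucleolar program responded to 6 h of CR31B. In replicates 2 to 4 the response was split and small. Of the 46 genes 16 rose, 6 fell and 24 did not pass the test (edgeR, adjusted p under 0.05). The largest rise was that of WDR12, a 60S assembly factor, by a log2 fold change of 0.73 ± 0.059 (SE), and the largest fall that of GNL3, a nucleolar GTP-binding protein, at -0.36 ± 0.067. The 22 called changes were all under 2-fold. Among all 16696 genes tested in the 6 single-end libraries 23.8% were called higher and 17.6% lower, 41.3% in either direction. The corresponding shares of the 46 genes were 34.8%, 13% and 47.8%, so the total share was near that of all genes. The groups of 3 were free of overlap for 15 genes that lay higher with CR31B and 7 that lay lower, beside 28% and 24.5% of all genes. The median log2 fold change of the 46 genes was 0.06, beside -0.01 over all genes tested.

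In the 6 single-end libraries the split into higher and lower moved with the scaling. Upper quartile scaling gave 11 higher and 13 lower, beside 18% and 27% of all genes, and total count scaling 13 and 11, beside 19.1% and 25.1%. These scalings moved the median of all genes to -0.10 and -0.08. Measured from that shifted median, the median of the 46 genes lay at 0.07 with TMM, with upper quartile and with total counts. With replicate number as a block, 20 genes were higher and 10 lower, beside 28.1% and 23.1% of all genes, so the calls grew over all genes too. Leaving out DMSO replicate 4 left 3 lower, beside 13% of all genes. Under all 15 alternatives for these 6 libraries UBTF, NOP58, GAR1, NAT10, UTP4, UTP15, UTP20, WDR12, RRS1 and LYAR (10 genes) stayed called higher and NHP2, NOP10 and GNL3 (3 genes) called lower.

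With all 8 libraries as labelled, 0 of the 46 genes passed (edgeR, layout as a covariate), 0 had an unadjusted p under 0.05 and DESeq2 also called 0. Over all 16518 genes of that fit 0% were called. The CR31B and DMSO groups of 4 were free of overlap for 0 of the 46 genes, beside 0.66% of all genes. Adjusted p of the 46 genes ran from 0.707 to 0.9996 and log2 fold changes from -0.22 to 0.37. Leaving out the library labelled CR31B replicate 1 or the one labelled DMSO replicate 1 gave 22 called genes in each case. Of all genes 23.8% were called higher and 17.8% lower in the first case, and 23.6% and 17.4% in the second. The words rose and fell below therefore refer to replicates 2 to 4.

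In replicate 1 all 16 genes that rose were lower in the library labelled CR31B than in the one labelled DMSO, with log2 differences between -0.83 and -0.20, and all 6 that fell were higher, between 0.11 and 0.30. Among all tested genes called in the single-end libraries, 6806 of 6882 had the opposite sign in replicate 1. A test of the interaction between treatment and layout passed for 24 of the 46 genes (edgeR, adjusted p under 0.05), beside 42.5% of all genes. Replicate 1 has 1 library per group, so the error of this test is taken from replicates 2 to 4 alone.

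**Figure D1:**
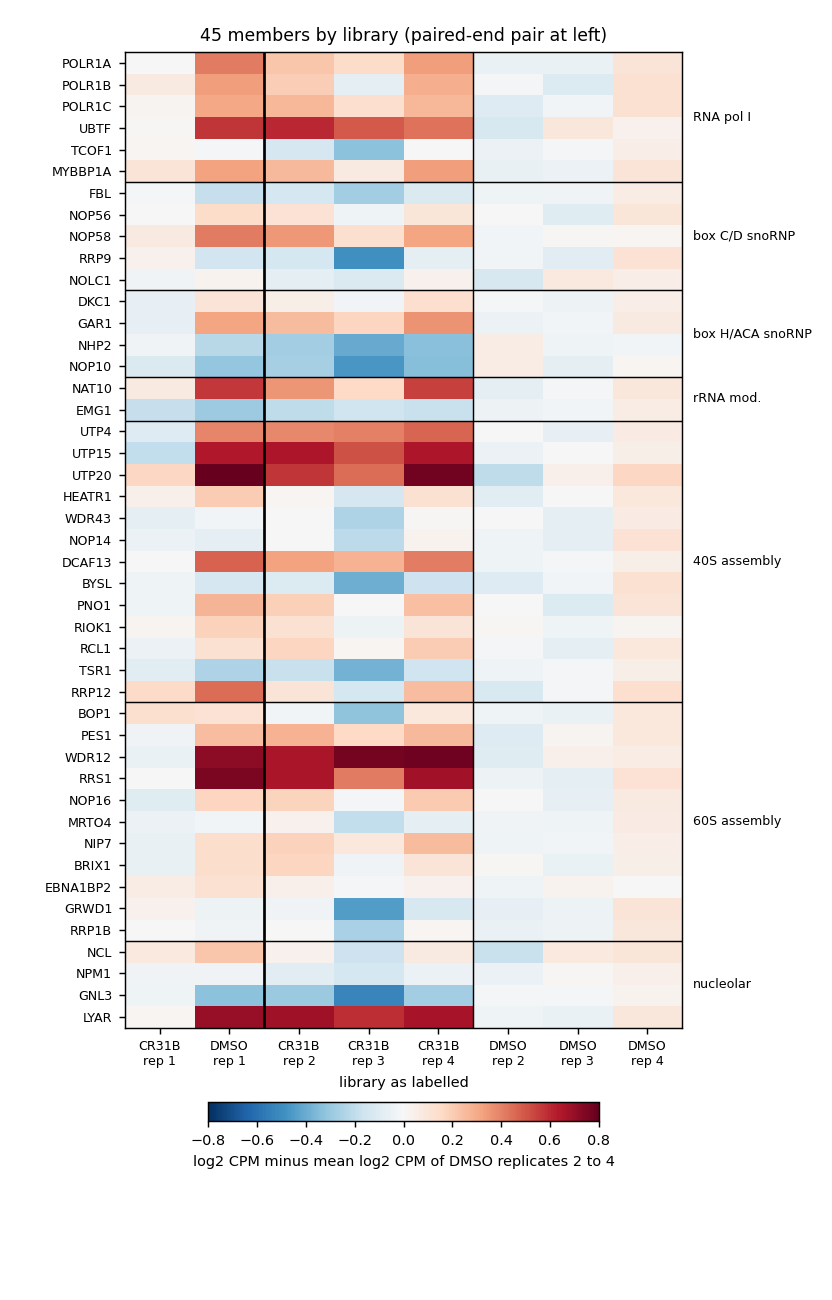
Each cell is the log2 CPM of 1 gene in 1 library minus the mean of DMSO replicates 2 to 4, with genes in rows by role and libraries in columns as labelled; NOP2, at under 1 CPM, is left out. The column of the library labelled DMSO replicate 1 resembles those of CR31B replicates 2 to 4, with WDR12, RRS1, UTP15, UTP20 and LYAR darkest.

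**Figure D2:**
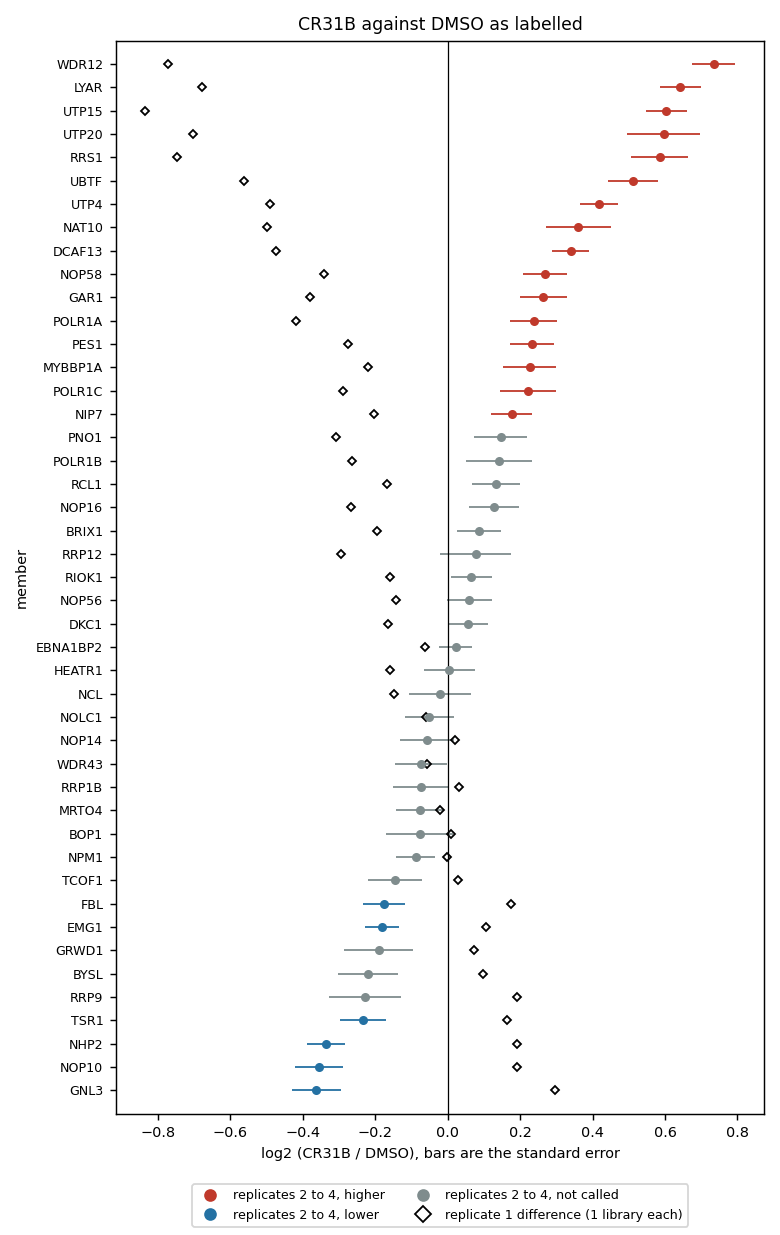
Filled points are log2 fold changes of replicates 2 to 4 with their standard error, coloured by call, and open diamonds are the replicate 1 differences, for 45 genes (NOP2 left out). The 16 genes that rose have diamonds below 0 and the 6 that fell have diamonds above 0.

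MYC proteins bind the E-box CACGTG, and its place in the promoters of these genes was read from RefSeq (GRCh38.p14), 250 bases before to 50 after each start. Of the 46 genes 38 had a promoter in that table; TCOF1, NOP58, NOLC1, DCAF13, RRP12, BOP1, RRS1 and RRP1B had none. The letters CACGTG, which read the same on both strands, stood in 16 of 38 promoters (42.1%), beside 7.26% of all 35116 promoters and 10% of the 11443 promoters of tested genes. Of the 17 E-boxes found, 15 began within 20 bases before to 40 bases after the start. Genes of every call held the letters: 5 of 13 genes that rose held them, 2 of 6 that fell and 9 of 19 that were not called. The ETS core CCGGAAG, searched on both strands, stood in 14 of 38 promoters (36.8%), beside 10.3% of all promoters and 18.6% of those of tested genes. A match describes letters only and not binding.

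The windows below show E-boxes at the start sites of 3 genes that rose, 2 that fell and 2 that were not called, each 30 bases long, 5′ to 3′ on the gene's strand, with the E-box in capitals.
UTP20, chr12:101280083-101280112, plus strand: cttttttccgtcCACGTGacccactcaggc
UTP4, chr16:69132621-69132650, plus strand: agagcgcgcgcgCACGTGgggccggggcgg
NAT10, chr11:34105602-34105631, plus strand: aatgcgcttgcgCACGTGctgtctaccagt
FBL, chr19:39846356-39846385, minus strand: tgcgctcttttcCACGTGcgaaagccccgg
NOP10, chr15:34343130-34343159, minus strand: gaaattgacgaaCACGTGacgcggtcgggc
PNO1, chr2:68157885-68157914, plus strand: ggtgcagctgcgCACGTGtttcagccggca
WDR43, chr2:28894658-28894687, plus strand: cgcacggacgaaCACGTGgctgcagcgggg
NOP10 was the only gene of the 38 with more than 1 E-box, and its 250 bases before the start (chr15:34343137-34343386, minus strand) are shown whole to give their spacing.
NOP10 upstream: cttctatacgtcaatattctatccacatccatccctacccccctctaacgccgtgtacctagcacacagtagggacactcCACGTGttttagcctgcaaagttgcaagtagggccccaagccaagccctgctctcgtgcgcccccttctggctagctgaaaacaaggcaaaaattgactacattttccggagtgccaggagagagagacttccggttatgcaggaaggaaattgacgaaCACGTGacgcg

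**Figure D3:**
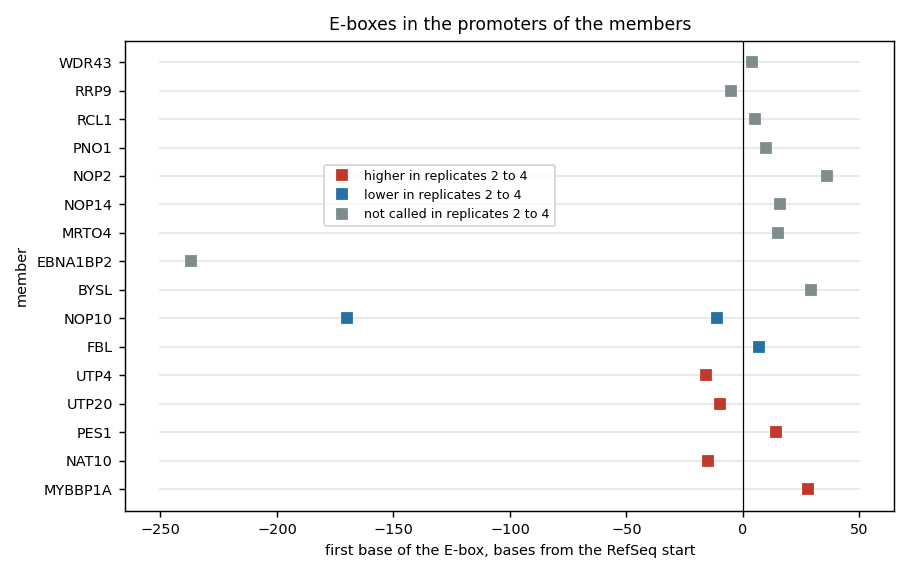
Squares mark the first base of each CACGTG in the promoters of the 16 genes that hold it, as distance in bases from the RefSeq start, coloured by the call in replicates 2 to 4. All but 2 of the 17 squares lie near the start, in genes of all 3 calls.

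RNA polymerase I and its cofactors had 4 of 6 genes higher and 0 lower, beside 23.8% and 17.6% of all genes tested. Of 18 further RNA polymerase I genes 5 were higher and 5 lower. The same shares of all genes stand beside the counts of each role group below. UBTF (chromosome 17, 44205033 to 44221626, minus strand), the factor that binds ribosomal DNA and recruits the polymerase, was at 568, 526 and 505 CPM in CR31B replicates 2, 3 and 4. In DMSO replicates 2, 3 and 4 UBTF was at 342, 398 and 383 CPM. These groups did not overlap, and replicate 1 ran the other way, with 377 CPM in the library labelled CR31B and 556 in the one labelled DMSO. The means were 533 ± 31.9 CPM and 374 ± 29.1 CPM (SD, n = 3), which makes a log2 rise of 0.51 ± 0.068 (SE; adjusted p = 0.000205, edgeR). As labelled over 8 libraries UBTF was at 0.25 ± 0.18 with an adjusted p of 0.707 (edgeR).

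POLR1A (chromosome 2, 86020216 to 86106155, minus strand), the largest catalytic subunit of the polymerase, was at 136, 129 and 146 CPM in CR31B replicates 2 to 4 and at 112, 112 and 125 CPM in the DMSO replicates. The groups lay close together without overlap, and in replicate 1 the library labelled CR31B was at 116 CPM and that labelled DMSO at 155. The POLR1A log2 fold change was 0.24 ± 0.064 with an adjusted p of 0.0134 (edgeR), and 0.07 ± 0.12 with an adjusted p of 0.812 over 8 libraries. Its call was lost with offsets for GC content and length (0.14, adjusted p = 0.121, edgeR), with upper quartile scaling, and without CR31B replicate 4, DMSO replicate 2 or DMSO replicate 3. POLR1C, a subunit shared with RNA polymerase III, and MYBBP1A, a nucleolar corepressor, rose by 0.22 and 0.23 with adjusted p of 0.0398 and 0.0317 (edgeR). Each lost its call under at least 7 of the 15 alternatives.

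POLR1B, which completes the catalytic core, had 0.14 with an adjusted p of 0.247, or 0.0278 with the replicate block (edgeR). TCOF1, which bridges the polymerase and UBTF, had -0.15 with an adjusted p of 0.152, or 0.0337 with the block (edgeR). TCOF1 was thus below 0 and POLR1A, POLR1B and POLR1C were above 0. With the settings used for the calls, neither TCOF1 nor POLR1B passed. Without the block TCOF1 was also called lower with upper quartile scaling (-0.24, adjusted p = 0.0111, edgeR), total counts and GC and length offsets. The same held with no filter and without CR31B replicate 4, but not under the other unblocked alternatives. Among those alternatives POLR1B was called higher only without CR31B replicate 3. Polymerase subunits outside the 46 genes went both ways. POLR1D and ZNRD1 were called higher, and POLR1E, POLR2F, POLR2K and POLR2L lower.

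The box C/D snoRNP, which guides methylation of ribosomal RNA, was split, with 1 of 5 genes higher and 1 lower. FBL (chromosome 19, 39834458 to 39846414, minus strand) encodes fibrillarin, the methyltransferase of the particle. FBL was at 156, 141 and 158 CPM in CR31B replicates 2 to 4 and at 168, 169 and 179 CPM in the DMSO replicates. The groups did not overlap, and in replicate 1 the library labelled CR31B was higher, with 171 against 151 CPM. The FBL log2 fold change was -0.18 ± 0.057 with an adjusted p of 0.031 (edgeR), and -0.09 ± 0.088 with an adjusted p of 0.714 over 8 libraries. The fall was the most fragile of the 6: with GC and length offsets it was -0.06 with an adjusted p of 0.51 (edgeR), and it was also lost without CR31B replicate 3, DMSO replicate 2 or DMSO replicate 4.

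NOP58 (chromosome 2, 202265716 to 202303666, plus strand), a scaffold of the same particle, was at 211, 182 and 207 CPM in CR31B replicates 2 to 4 and at 163, 167 and 168 CPM in the DMSO replicates. CR31B replicate 3 lay nearest to the DMSO values, and in replicate 1 the libraries labelled CR31B and DMSO were at 175 and 221 CPM. Its log2 fold change was 0.27 ± 0.061 with an adjusted p of 0.00546 (edgeR), and 0.12 ± 0.12 with an adjusted p of 0.716 over 8 libraries. NOP56, the paralogous scaffold that pairs with NOP58 in every box C/D particle, had 0.06 ± 0.063 with an adjusted p of 0.482 (edgeR). RRP9, a protein specific to the U3 particle, had -0.23 with an adjusted p of 0.0922, or 0.00631 with the replicate block (edgeR). Without the block RRP9 was also called lower with upper quartile scaling, total counts, DESeq2 and both other filters. RRP9 was not called with RLE, when any library was left out or with GC and length offsets (-0.09, adjusted p = 0.536, edgeR). NOLC1, a chaperone of snoRNPs, had -0.05 with an adjusted p of 0.584 (edgeR).

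The box H/ACA snoRNP, which converts uridines of ribosomal RNA to pseudouridine and also forms part of telomerase, moved in opposite directions within 1 particle. Of its 4 proteins NHP2 and NOP10 fell, GAR1 rose and DKC1 was not called. NOP10 (chromosome 15, 34341713 to 34343177, minus strand), the smallest core protein and the gene with 2 E-boxes above, was at 41.9, 36.5 and 39.8 CPM in CR31B replicates 2 to 4. In the DMSO replicates NOP10 was at 52.5, 47.9 and 51.1 CPM. The groups were clearly apart, and in replicate 1 the order was reversed at 46.6 CPM for the library labelled CR31B and 40.8 for that labelled DMSO. The log2 fold change of NOP10 was -0.36 ± 0.065 with an adjusted p of 0.00155 (edgeR), and -0.22 ± 0.11 with an adjusted p of 0.707 over 8 libraries. GC and length offsets brought it to -0.21 with an adjusted p of 0.0309 (edgeR); its merged exons span 554 bases, the shortest of the 46 genes.

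NHP2 (chromosome 5, 178149460 to 178153967, minus strand), an RNA-binding core protein, was at 110.4, 101 and 106 CPM in CR31B replicates 2 to 4 and at 139, 131 and 132 CPM in the DMSO replicates. These values did not overlap, and in replicate 1 they were 131 CPM for the library labelled CR31B and 115 for that labelled DMSO. The NHP2 log2 fold change was -0.34 ± 0.052 with an adjusted p of 0.000545 (edgeR), or -0.19 with an adjusted p of 0.0249 with GC and length offsets. Over 8 libraries NHP2 was at -0.21 ± 0.10 with an adjusted p of 0.707 (edgeR). Exons of RMND5B on the other strand cover 27.4% of the exonic bases of NHP2. Whether RMND5B reads entered the NHP2 value was not tested. GAR1, a core protein at 30.1 to 40.3 CPM over the 8 libraries, rose by 0.26 ± 0.065 with an adjusted p of 0.00825 (edgeR). DKC1, the pseudouridine synthase itself, had 0.06 ± 0.055 with an adjusted p of 0.449 (edgeR).

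**Figure D4:**
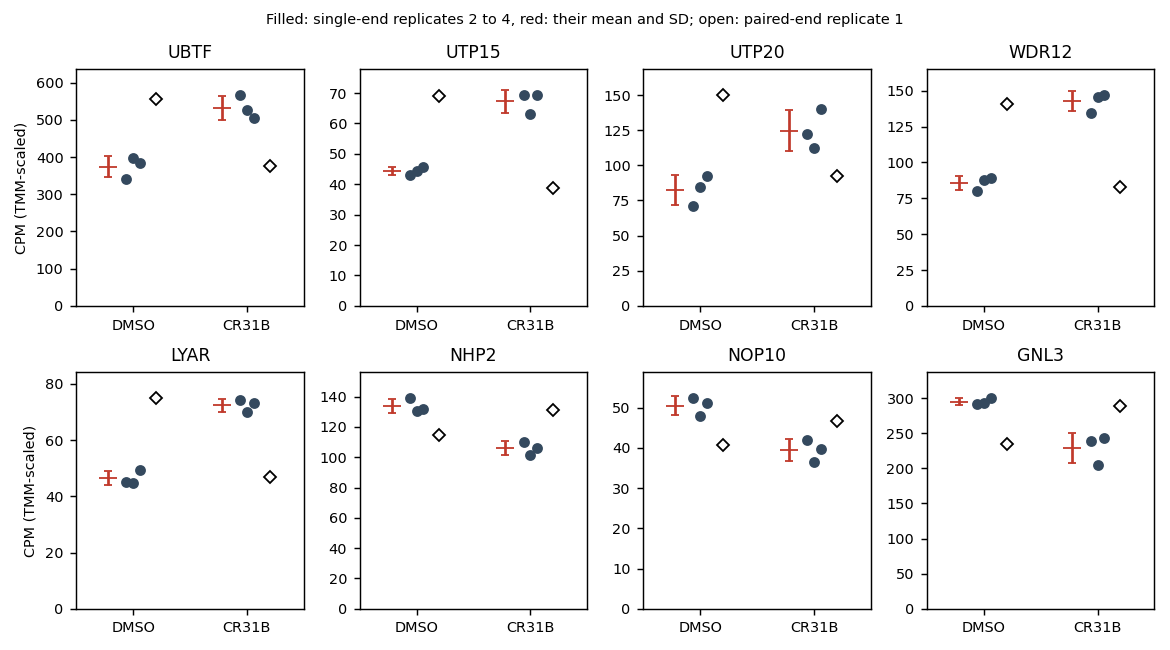
TMM-scaled CPM of 8 genes by group, from 0; filled points are replicates 2 to 4, red marks their mean and SD (n = 3), and open diamonds the replicate 1 libraries. UBTF, UTP15, UTP20, WDR12 and LYAR are higher and NHP2, NOP10 and GNL3 lower with CR31B in replicates 2 to 4, and each diamond lies nearer to the other group's points.

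Other enzymes that modify ribosomal RNA also parted. NAT10 (chromosome 11, 34105602 to 34147670, plus strand), which acetylates cytidines of the small subunit RNA, was at 80.3, 70 and 91.5 CPM in CR31B replicates 2 to 4 and at 59.4, 62.3 and 66.8 CPM in the DMSO replicates. The spread was wide in the CR31B group but the groups did not overlap, and replicate 1 gave 65.8 and 92.9 CPM for the libraries labelled CR31B and DMSO. Its log2 fold change was 0.36 ± 0.089 with an adjusted p of 0.00811 (edgeR), and 0.15 ± 0.16 with an adjusted p of 0.729 over 8 libraries. EMG1 (chromosome 12, 6970893 to 6997428, plus strand), a methyltransferase for a pseudouridine of the small subunit, was at 99.9, 103 and 102 CPM in CR31B replicates 2 to 4 and at 112, 114 and 120 CPM in the DMSO replicates. The CR31B values were tight and all below those of DMSO, and replicate 1 gave 101 and 94.3 CPM for the libraries labelled CR31B and DMSO. EMG1 fell by 0.18 on the log2 scale (SE 0.048), with an adjusted p of 0.0116 (edgeR), and lost the call without DMSO replicate 4; over 8 libraries it was at -0.11 ± 0.076 with an adjusted p of 0.707 (edgeR). Exons of LPCAT3 on the other strand cover 49.5% of the exonic bases of EMG1. The deposited counts bear the word reverse in their name, the only hint at a strand setting of the counting. Whether LPCAT3 reads entered the EMG1 value was not tested, so that value stays uncertain. NOP2, a cytosine methyltransferase, was listed at only 0.29 CPM on average, and another annotated gene on its strand covers 54.4% of its exonic bases, so no difference was detectable at these counts.

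Assembly of the 40S subunit held 4 of 13 genes higher and 1 lower. UTP15 (chromosome 5, 73565443 to 73583377, plus strand) and UTP4 belong to the complex that first loads onto the growing precursor RNA. UTP15 was at 69.5, 63 and 69.5 CPM in CR31B replicates 2 to 4 and at 43, 44.3 and 45.7 CPM in the DMSO replicates. The gap between the groups was far wider than the spread within them, and in replicate 1 the library labelled CR31B was at 38.7 CPM and that labelled DMSO at 69. Its log2 fold change was 0.60 ± 0.057 with an adjusted p of 2.16e-05 (edgeR), and 0.25 ± 0.23 with an adjusted p of 0.707 over 8 libraries. UTP4, whose E-box window is shown above, rose by 0.42 ± 0.052 with an adjusted p of 0.000128 (edgeR). HEATR1 and WDR43, of the same early complex, had 0.00 and -0.07 with adjusted p of 0.964 and 0.445 (edgeR).

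UTP20 (chromosome 12, 101280109 to 101386616, plus strand), a very long scaffold protein of the small subunit processome, was at 122, 112 and 140.3 CPM in CR31B replicates 2 to 4 and at 71.3, 84.5 and 92.1 CPM in the DMSO replicates. The groups did not overlap although each was broad, and replicate 1 gave 92.2 and 150.3 CPM for the libraries labelled CR31B and DMSO. The UTP20 log2 fold change was 0.60 ± 0.10 with an adjusted p of 0.00089 (edgeR), or 0.40 with an adjusted p of 0.00734 with GC and length offsets. Over 8 libraries UTP20 had 0.28 ± 0.22 with an adjusted p of 0.707 (edgeR). DCAF13, another processome protein, rose by 0.34 ± 0.052 with an adjusted p of 0.00048 (edgeR), but had 0.13 with an adjusted p of 0.0623 once GC and length were offset.

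Of the other 40S genes 1 was called. TSR1, a GTPase-like factor of late maturation, fell by 0.23 on the log2 scale (SE 0.064) with an adjusted p of 0.0135 (edgeR), and lost the call without DMSO replicate 4. Exons on the other strand cover 20.8% of the exonic bases of TSR1. BYSL, also a late factor, had -0.22 with an adjusted p of 0.0568, or 0.0184 with the replicate block (edgeR), and its groups did not overlap. Without the block BYSL was also called lower with upper quartile scaling, total counts, DESeq2 and both other filters. The same held without CR31B replicate 2 or DMSO replicate 2. BYSL was not called with RLE, with GC and length offsets or when any other library was left out. PNO1 (0.15, adjusted p = 0.145) and RCL1 (0.13, adjusted p = 0.138) were not called and had adjusted p of 0.0116 and 0.0322 with the block (edgeR). Among the alternatives without the block, both were called higher only when CR31B replicate 3 was left out. The kinase RIOK1 had 0.07, NOP14 -0.06 and RRP12, an export factor, 0.08, with adjusted p of 0.382, 0.567 and 0.565 (edgeR).

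Assembly of the 60S subunit held 4 of 11 genes higher and 0 lower, among them WDR12 and PES1 of the complex that PES1, BOP1 and WDR12 form to process the large subunit RNA. WDR12 (chromosome 2, 202874782 to 203014798, minus strand) was at 135, 146 and 147 CPM in CR31B replicates 2 to 4 and at 80.2, 88.1 and 89.2 CPM in the DMSO replicates. These groups of 3 stood well apart, and in replicate 1 the library labelled CR31B was at 82.6 CPM and that labelled DMSO at 141. This 1.66-fold rise had an adjusted p of 7.31e-06 (edgeR), and over 8 libraries the log2 fold change was 0.37 ± 0.24 with an adjusted p of 0.707. PES1 rose by only 0.23 ± 0.061 with an adjusted p of 0.0111 (edgeR) and was not called with upper quartile scaling. BOP1 had -0.08 ± 0.091 with an adjusted p of 0.532 (edgeR).

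RRS1 (chromosome 8, 66429028 to 66430733, plus strand), which helps to seat the 5S particle in the pre-60S subunit, was at 61.7, 52.5 and 62.7 CPM in CR31B replicates 2 to 4 and at 38.2, 37.4 and 42.5 CPM in the DMSO replicates. CR31B replicate 3 was lowest of these 3 but above each of the 3 DMSO values, and replicate 1 gave 39.4 and 66.2 CPM for the libraries labelled CR31B and DMSO. The RRS1 log2 fold change was 0.59 ± 0.079 with an adjusted p of 0.00021 (edgeR), and 0.26 ± 0.22 with an adjusted p of 0.707 over 8 libraries. NIP7, a small factor with 20.2% of its exonic bases under exons of the other strand, rose by 0.18 ± 0.056 with an adjusted p of 0.029 (edgeR) and lost the call under 7 of the 15 alternatives. NOP16 (0.13) and GRWD1 (-0.19) had adjusted p of 0.161 and 0.137, or 0.0353 and 0.0387 with the replicate block (edgeR). Without the block NOP16 was also called higher when CR31B replicate 3 was left out. GRWD1 was also called lower with upper quartile scaling, total counts, no filter and without CR31B replicate 2. Every other alternative without the block called neither. BRIX1 had 0.09, EBNA1BP2 0.02, RRP1B -0.07 and MRTO4 -0.08, with adjusted p between 0.283 and 0.735 (edgeR).

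Among the remaining 4 genes, which encode nucleolar proteins, 1 rose (LYAR), 1 fell (GNL3) and NPM1 and NCL were not called. NPM1 (chromosome 5, 171387116 to 171411137, plus strand), a histone and ribosome chaperone, had the highest level per length, with 438 CPM per kb of merged exon over the 8 libraries, followed by NCL with 160.4 and NOLC1 with 107. NPM1 was at 1627, 1565 and 1670 CPM in CR31B replicates 2 to 4 and at 1666, 1735 and 1775 CPM in the DMSO replicates. The groups overlapped at their edges, and the replicate 1 libraries labelled CR31B and DMSO were at 1692 and 1695 CPM. The NPM1 value of -0.09 ± 0.055 on the log2 scale did not pass (adjusted p = 0.222, edgeR), nor did -0.07 ± 0.072 over 8 libraries (adjusted p = 0.721, edgeR). It passed with upper quartile scaling (-0.19, adjusted p = 0.00662, edgeR), total counts (-0.17) and GC and length offsets (-0.18). The 45 annotated pseudogenes named after NPM1 held counts equal to 2.42% of its own, so some of its reads may be split among copies.

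NCL (chromosome 2, 231453531 to 231483641, minus strand), nucleolin, which binds ribosomal RNA and the chromatin of its genes, was at 1109, 968 and 1138 CPM in CR31B replicates 2 to 4 and at 959, 1145 and 1162 CPM in the DMSO replicates. The groups overlapped fully, and replicate 1 gave 1144 and 1267 CPM for the libraries labelled CR31B and DMSO. The NCL log2 fold change was -0.02 ± 0.085 with an adjusted p of 0.866 (edgeR), and -0.05 ± 0.096 with an adjusted p of 0.822 over 8 libraries.

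GNL3 (chromosome 3, 52681156 to 52694492, plus strand), nucleostemin, a GTP-binding protein of proliferating cells, was at 239.5, 204 and 243 CPM in CR31B replicates 2 to 4 and at 291, 292 and 301 CPM in the DMSO replicates. The DMSO values were tight and all above those of CR31B, and replicate 1 gave 288 and 235 CPM for the libraries labelled CR31B and DMSO. Its adjusted p was 0.00163 (edgeR), with a fall of 0.36 on the log2 scale, and over 8 libraries -0.20 ± 0.13 with an adjusted p of 0.707. LYAR (chromosome 4, 4267701 to 4290169, minus strand), a zinc finger protein that acts in precursor RNA processing, went the other way, at 74.4, 69.8 and 73.2 CPM in CR31B replicates 2 to 4 and at 45.2, 44.8 and 49.4 CPM in the DMSO replicates. In replicates 2 to 4 the LYAR groups were far apart, and replicate 1 gave 47 and 75.2 CPM for the libraries labelled CR31B and DMSO. The LYAR log2 fold change was 0.64 ± 0.057 with an adjusted p of 1.35e-05 (edgeR), and 0.32 ± 0.21 with an adjusted p of 0.707 over 8 libraries.

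Transcript length and base composition differed between the genes that rose and those that fell. The 16 that rose had a median merged exon length of 5615.5 bases and a median GC content of 47.1%, the 6 that fell 2745.5 bases and 50.9%, and the 24 not called 4166.5 bases and 50%. Across the 46 genes the log2 fold change had a Spearman rho of 0.33 with log2 length and -0.36 with GC content, beside 0.24 and -0.15 across all tested genes. These are descriptions across genes, which share libraries and are not replicates. With offsets for GC content and length 12 genes were called higher and 7 lower, beside 20.6% and 19.6% of all genes. The log2 fold change became smaller for WDR12 (0.54), UTP15 (0.44), UTP20 (0.40) and NHP2 (-0.19), stayed near its value without offsets for UBTF (0.51) and LYAR (0.61), and became larger for GNL3 (-0.41) and RRS1 (0.73).

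**Figure D5:**
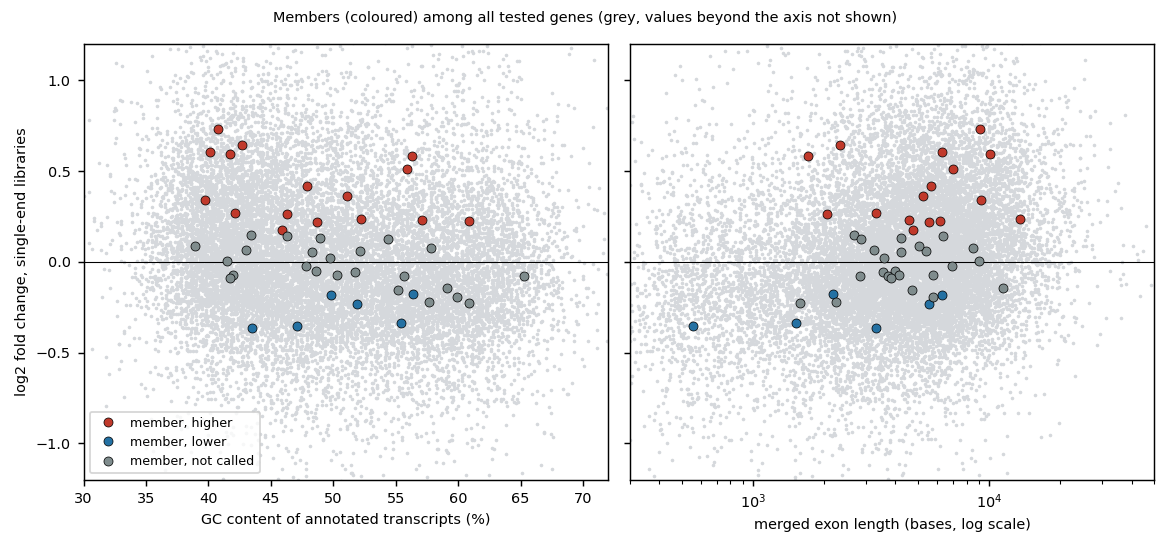
The log2 fold change of replicates 2 to 4 is plotted against GC content (left) and merged exon length on a log axis (right), for all tested genes in grey and the 46 genes coloured by call. Among the largest rises WDR12, UTP15, UTP20 and LYAR have GC contents of 40.8%, 40.1%, 41.7% and 42.7%, and RRS1 and UBTF 56.3% and 55.9%. GNL3, the largest fall, has 43.5%.

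The rest of the pathway, 160 other symbols in 5 lists of which 158 were found and tested, gave 37 genes higher and 28 lower (23.4% and 17.7%), shares close to those of all genes. Further RNA polymerase I genes, with shared subunits and initiation factors, had 5 higher and 5 lower of 18. TAF1A, of the promoter selectivity factor, rose by 0.61 ± 0.056 (adjusted p = 1.74e-05, edgeR) and ZNRD1, a small subunit of the polymerase, by 0.25, whereas the polymerase subunits POLR1E and POLR2L fell by 0.37 and 0.36 on the log2 scale.

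Other 40S factors had 13 higher and 7 lower of 46. UTP3 rose from 47.1 ± 2.8 CPM to 88.1 ± 1.58 CPM (SD, n = 3 each), a log2 fold change of 0.91 ± 0.056 (adjusted p = 1.90e-06, edgeR), larger than any of the 46 genes, and AATF, a nucleolar antiapoptotic factor, by 0.75 ± 0.06. TRMT112, a cofactor of several methyltransferases, fell by 0.42 and UTP11 by 0.33 on the log2 scale. Other 60S factors had 10 higher and 8 lower of 55, with RPF2, the partner of RRS1, at 0.41 and URB2 at 0.38, and with the ATPase NVL at -0.40 and the GTPase GNL2, a relative of GNL3, at -0.35.

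The exosome and spacer-processing list had 5 higher and 7 lower of 26. ERI1, an exonuclease that trims ribosomal RNA, rose by 0.84 ± 0.052 and RPP14, of RNase P and MRP, by 0.79 ± 0.06, while POP5 of the same enzymes and the exonuclease XRN2 fell by 0.33 and 0.31 on the log2 scale. Among 14 snoRNP assembly factors 4 were higher and 2 lower, with NAF1 at 0.51 and SHQ1 at 0.46, both chaperones of the H/ACA particle, and ZNHIT3 at -0.43 and the ATPase RUVBL2 at -0.22. In replicate 1 each of the 65 called genes of these lists had the opposite sign.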

How the data were processed

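RNA was sequenced from 8 IMR32 libraries (4 CR31B, 4 DMSO; groups and replicate numbers from the titles). Per the labels' protocols, 250 ng of RNA, 15 PCR cycles and 75-cycle runs were used. The submitters' processing notes name STAR 2.7.2b, edgeR 3.36.0, limma 3.50.3 and GRCh38. The counting tool and annotation are not given in the sources used here. For the strand setting there is only the word reverse in the name of the deposited counts. The authors deposited raw counts per Ensembl gene, without normalisation. Totals were 43687828 to 64715535 per library; counts may include PCR duplicates, so depth speaks to counting error only. Positions come from GENCODE release 29 (GRCh38), which held 58515 of 58787 identifiers. Of the entries of the lists 2 were unmatched. The members and lists were chosen with earlier results of these data known.

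Counts were tested with edgeR 4.0.16 (R 4.3.3; quasi-likelihood, filterByExpr, TMM, two-sided, Benjamini-Hochberg over all tested genes, threshold 0.05), once over 8 libraries with layout as covariate and once over the 6 single-end libraries. For replicate 1 the log2 CPM values (prior count 1) were subtracted. Values per library were written for NCL, NPM1, FBL and, in each of 7 role groups, up to 2 called genes of at least 5 CPM with the largest change; of each other list, up to 2 called genes per direction. Alternatives were other scalings and filters, a replicate block, loess offsets on GC and length (span 0.3), DESeq2 1.42.0, an omitted layout term and leaving out each library. The E-box windows shown and the genes plotted by level were picked after their values were seen. Scripts were tested on simulated data. No pair of libraries was a duplicate (smallest chi-square per gene 7.29). Deviations from group means of same-numbered single-end libraries had correlations of 0.21 (replicate 2), 0.39 (replicate 3) and 0.16 (replicate 4), each over 0.1. Over all 8 libraries as labelled the correlations were -0.53, -0.078, 0.16 and -0.11 for replicates 1 to 4. Same-numbered libraries were treated as paired in the block, for the 6 and for the 8 libraries. The p-values measure only the spread between these libraries.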

Additional observations from a re-analysis of the deposited data

Results flagged for a closer look

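In groups of 4 libraries, the gap between the farthest library and its neighbour, divided by the group's range, passed Dixon's 95% critical value in 12 of 92 cases (46 genes in each group), where chance gives about 4.6. In 8 of the 12 the library apart was replicate 1. In the DMSO group these were NOP58 (0.917), UTP15 (0.895), DCAF13 (0.869), WDR12 (0.852), GNL3 (0.856) and LYAR (0.846), and in the CR31B group UTP4 (0.833) and LYAR (0.835). DMSO replicate 4 was apart for MRTO4 (0.877), GRWD1 (0.849) and RRP1B (0.84), and CR31B replicate 3 for RRP1B (0.945).

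For 24 genes the log2 difference of replicate 1 departed from that of replicates 2 to 4 by the interaction of treatment and layout, and all 24 had opposite signs in the 2 layouts. The replicate 1 difference minus the single-end difference was -1.51 for WDR12, -1.44 for UTP15, -1.33 for RRS1, -1.32 for LYAR, -1.30 for UTP20 and -1.07 for UBTF. It was -0.91 for UTP4, -0.86 for NAT10, -0.81 for DCAF13, -0.65 for POLR1A, -0.64 for GAR1, -0.61 for NOP58, -0.51 for POLR1C and -0.51 for PES1. It was -0.45 for PNO1, -0.45 for MYBBP1A, -0.39 for NOP16 and -0.38 for NIP7. On the other side it was 0.66 for GNL3, 0.55 for NOP10, 0.53 for NHP2, 0.40 for TSR1, 0.35 for FBL and 0.29 for EMG1. Layout and replicate 1 are the same libraries and cannot be told apart.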

How the results depend on the processing

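Over 8 libraries the count of called genes was 0 under the 10 alternatives that kept every library. It was 0 to 22 when each library was left out in turn, beside 0 to 6920 of all genes. In the single-end libraries the count of higher genes stayed within 1.5 times of 16 under each of the 15 alternatives. It was 12 to 20 when leaving out a library, beside 19.6% to 23.5% of all genes. The count of lower genes, 6 beside 17.6% of all genes, became 13 with upper quartile scaling (27% of all genes) and 11 with total counts (25.1%). It was 10 without a filter (11.2%), 10 with the replicate block (23.1%) and 10 with the block and GC and length offsets (26%). Leaving out a library gave 3 to 8 lower genes, beside 13% to 16.5% of all genes. The median log2 fold change was -0.034 with upper quartile scaling and -0.016 with total counts. The replicate block gave 20 higher and 10 lower genes and ended no call of the 22. Of the 22 called genes 13 kept the call throughout; the cause of each loss was not tested. The interaction could not be fitted without a library of replicate 1.

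Of the 24 genes not called, 14 changed sign at least once. With upper quartile and total count scaling the log2 fold changes were -0.037 and -0.019 for NOP56, -0.040 and -0.023 for DKC1, -0.093 and -0.075 for HEATR1, -0.031 and -0.014 for RIOK1, -0.021 and -0.0039 for RRP12 and -0.074 and -0.057 for EBNA1BP2; BRIX1 had -0.010 with the first. With GC and length offsets, without and with the block, HEATR1 had -0.18 and -0.18, MRTO4 0.011 and 0.0091 and BRIX1 -0.057 and -0.059. HEATR1 also had -0.0075 with RLE, -0.0071 without a filter, -0.033 with at least 1 CPM in 3 libraries and -0.0075 with DESeq2, and EBNA1BP2 -0.014 with at least 1 CPM. When leaving out a library HEATR1 ranged from -0.055 to 0.070, NCL from -0.10 to 0.049, NOP2 from -0.38 to 0.20, WDR43 from -0.12 to 0.0066, NOP14 from -0.10 to 0.015, RRP12 from -0.013 to 0.18, BOP1 from -0.16 to 0.034 and RRP1B from -0.12 to 0.011. NOP2 was at under 1 CPM, where counting error is large; the effect of depth on the other genes was not tested.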
